A study of Homo sapiens with 30 samples.

Results

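The FGF feedback genes are 9 protein-coding genes whose transcription is switched on by FGF signalling, most of which restrain that signalling: SPRY1, SPRY2, SPRY4, SPRED1, DUSP6, IL17RD, ETV1, ETV4 and ETV5. They were chosen by name, with earlier results of these data known, as 9 of 20037 protein-coding genes on chromosomes 1 to 22, X and Y. For each gene, ATAC-seq peaks were taken from the GRCh38 gene body with 50 kb on each side. Peaks of different lists that shared at least 1 bp were joined, which gave 315 regions in these windows, out of 493444 in the genome. A region is called open in a list that has a peak there.

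When an FGF binds its receptor, the adaptor FRS2 links the receptor to RAS, which sets off a chain of kinases that ends in MEK and ERK. ERK releases or activates transcription factors, and among the genes that respond fastest are those that damp the same cascade. The Sprouty proteins and SPRED1 act upstream of MEK, DUSP6 removes the activating phosphates from ERK, and IL17RD (also called SEF) is a membrane protein that holds back the signal below the receptor. ETV1, ETV4 and ETV5 are the PEA3 group of ETS transcription factors, which carry part of the FGF response into transcription. In the early neural plate, FGF and retinoic acid signals help to set posterior identity, and these genes are widely used as readouts of FGF activity.

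The cells were of the wild-type human embryonic stem cell line H1, so that all groups share 1 genetic background. Labels describe 30 OmniATAC-seq libraries of 50000 cells each, in 10 groups of 3 biological replicates. Pluripotent cells (hPSC) were taken on day 0. The group called DE was taken on day 1, after 24 h in medium with the MEK inhibitor trametinib at 250 nM, the TGF-beta receptor inhibitor A8301 at 1 µM, the BMP receptor inhibitor LDN193189 at 100 nM and the WNT secretion inhibitor C59. From DE, anterior (aNE) and posterior (pNE) neural ectoderm were made and taken on day 2. A8301 and LDN193189 stayed in both media, with the ROCK inhibitor Thiazovivin, and trametinib is listed for neither. The aNE medium held C59 at 1 µM and no added FGF2. The pNE medium held FGF2 at 20 ng/mL, the retinoic acid receptor agonist TTNPB at 50 nM and the tankyrase inhibitor XAV939 at 1 µM, without C59. FGF2, TTNPB, XAV939 and C59 thus cannot be told apart between aNE and pNE. Day 4 groups were made from both, with the endings T (forebrain), M (midbrain) and H (hindbrain), as aNE_T, aNE_M, aNE_H, pNE_T, pNE_M and pNE_H. The forebrain medium of day 3 held FGF2 at 20 ng/mL, and the midbrain and hindbrain media are not given in the sources used here. Cells kept to day 4 were plated at 75000 per square cm in the anterior arm and at 150000 in the posterior arm.

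Each group has 1 peak list, with positions and no height, score or value per library. There is thus no replicate error, no test was possible, and every difference compares lists rather than conditions. Read depth is unknown. On the main chromosomes the lists ran from 167792 peaks in aNE to 313095 in pNE_H, and the covered sequence ran from 75.5 Mb to 129 Mb. A longer list raises the number of peaks in any window, so values are also given scaled to the list. Marker windows moved in part with the labels. Bases inside peaks summed over 5 pluripotency genes went from 38537 in hPSC to 33444 in DE, 29575 in aNE and 30415 in pNE. NANOG, PRDM14 and DPPA4 were lower in DE, aNE and pNE than in hPSC. POU5F1 rose from 5699 in hPSC to 6067 in DE and fell to 3779 in aNE and 3042 in pNE. LIN28B did not fall, with 8717 in hPSC, 9228 in DE, 8733 in aNE and 10572 in pNE. The sum over 6 neural ectoderm genes stayed between 50379 and 52833 in these 4 lists. Windows of mesendoderm genes (5) held 37259 to 41337 bases and those of neural crest and surface ectoderm genes (4) held 32994 to 35321 in the same lists. The part of these genes in the results was not tested.

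Promoter sequences are shown for DUSP6 and ETV1. Of the 7 members in the promoter table, these 2 carry the octamer bound by Capicua (CIC) in the 250 bases before their first annotated start. CIC is a repressor of ETV and feedback genes that ERK inactivates. Further annotated starts of SPRY1, SPRY2, IL17RD and ETV1 are not included in this count. The members in the table were SPRY1, SPRY2, SPRY4, SPRED1, DUSP6, IL17RD and ETV1. Sequences are the 250 bases before the first annotated start, from RefSeq on GRCh38.p14, written 5′ to 3′ on the gene's strand, with the octamer in capitals. The DUSP6 stretch is chr12:89352502-89352751 on the minus strand, and the ETV1 stretch is chr7:13991426-13991675, also on the minus strand.
DUSP6: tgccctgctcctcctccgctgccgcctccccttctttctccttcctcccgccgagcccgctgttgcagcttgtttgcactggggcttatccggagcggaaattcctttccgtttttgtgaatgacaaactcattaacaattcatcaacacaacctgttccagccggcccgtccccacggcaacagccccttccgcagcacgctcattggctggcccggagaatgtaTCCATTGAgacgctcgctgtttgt
ETV1: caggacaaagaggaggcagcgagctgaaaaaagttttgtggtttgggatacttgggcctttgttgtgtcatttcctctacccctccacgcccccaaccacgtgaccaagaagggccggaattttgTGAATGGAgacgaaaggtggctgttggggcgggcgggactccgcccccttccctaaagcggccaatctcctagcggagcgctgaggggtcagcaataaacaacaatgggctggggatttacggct
In DUSP6 the octamer begins 24 bases before the start and reads TCAATGGA on the opposite strand. In ETV1 it begins 125 bases before the start and reads TGAATGGA on the printed strand. The octamers searched, on both strands, were TGAATGAA, TGAATGGA, TCAATGAA and TCAATGGA, and 3.18% of 35116 promoter stretches of this length held at least 1 of them. The ETS word CCGGAAG was in 0 of the 7 member stretches and in 8.52% of all, and the AP-1 word TGACTCA was in 0 of 7 and in 4.2% of all. Member counts take 1 start per gene, and the 35116 stretches outnumber the 15843 genes with an annotated start. Both printed stretches lay wholly inside a peak in 10 of the 10 lists, so no list lacks a peak over these octamers. Peak height there is not known.

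Start sites of the FGF feedback genes had a peak in every list. For the 7 genes with an annotated start a peak lay within 1 kb in 10 of 10 lists, as it did for 75.1% of 15843 genes with such a start. The same was true of the upper gene end of ETV4 and ETV5. It covered the position itself in every case except SPRY4, where the nearest region, chr5:142324262-142326777, begins 15 bp from the start given in the table and spans the upper end of the gene. The widest start peak was 1027 bp in pNE_M to 1270 bp in pNE_T for DUSP6, and 390 bp in aNE_T to 676 bp in hPSC for IL17RD. SPRED1 had 1759 bp in DE to 2309 bp in aNE_T. For SPRY1 it was 687 bp in DE and 2630 bp in aNE_M, and for SPRY2 629 bp in hPSC and 1279 bp in pNE_T. SPRY4 ran from 913 bp in DE to 2440 bp in pNE_H, and ETV1 from 636 bp in DE to 1454 bp in aNE_M. At the upper ends of ETV4 and ETV5 the narrowest peak was again in DE, with 1058 and 688 bp, against 1847 bp in aNE_T and 2017 bp in aNE. Thus the narrowest start peak fell in DE, the list made after trametinib, for 4 of the 7 genes with an annotated start (SPRY1, SPRY4, SPRED1 and ETV1), where 25.6% of 11898 genes with a start peak in every list had theirs. This count was made after the widths were seen, and it follows partly from a wide peak being split. The next narrowest list was often close to DE: 763 bp in pNE for SPRY1, 958 bp in pNE_T for SPRY4, 1883 bp in pNE_T for SPRED1 and 686 bp in aNE for ETV1. Counted as bases inside peaks within 1 kb, DE was lowest for 2 of 7 (SPRY1 and ETV1) against 25.1% of genes. By this measure DE was also lowest at the upper ends of ETV4 (1058 bases) and ETV5 (1036 bases).

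**Figure D1:**
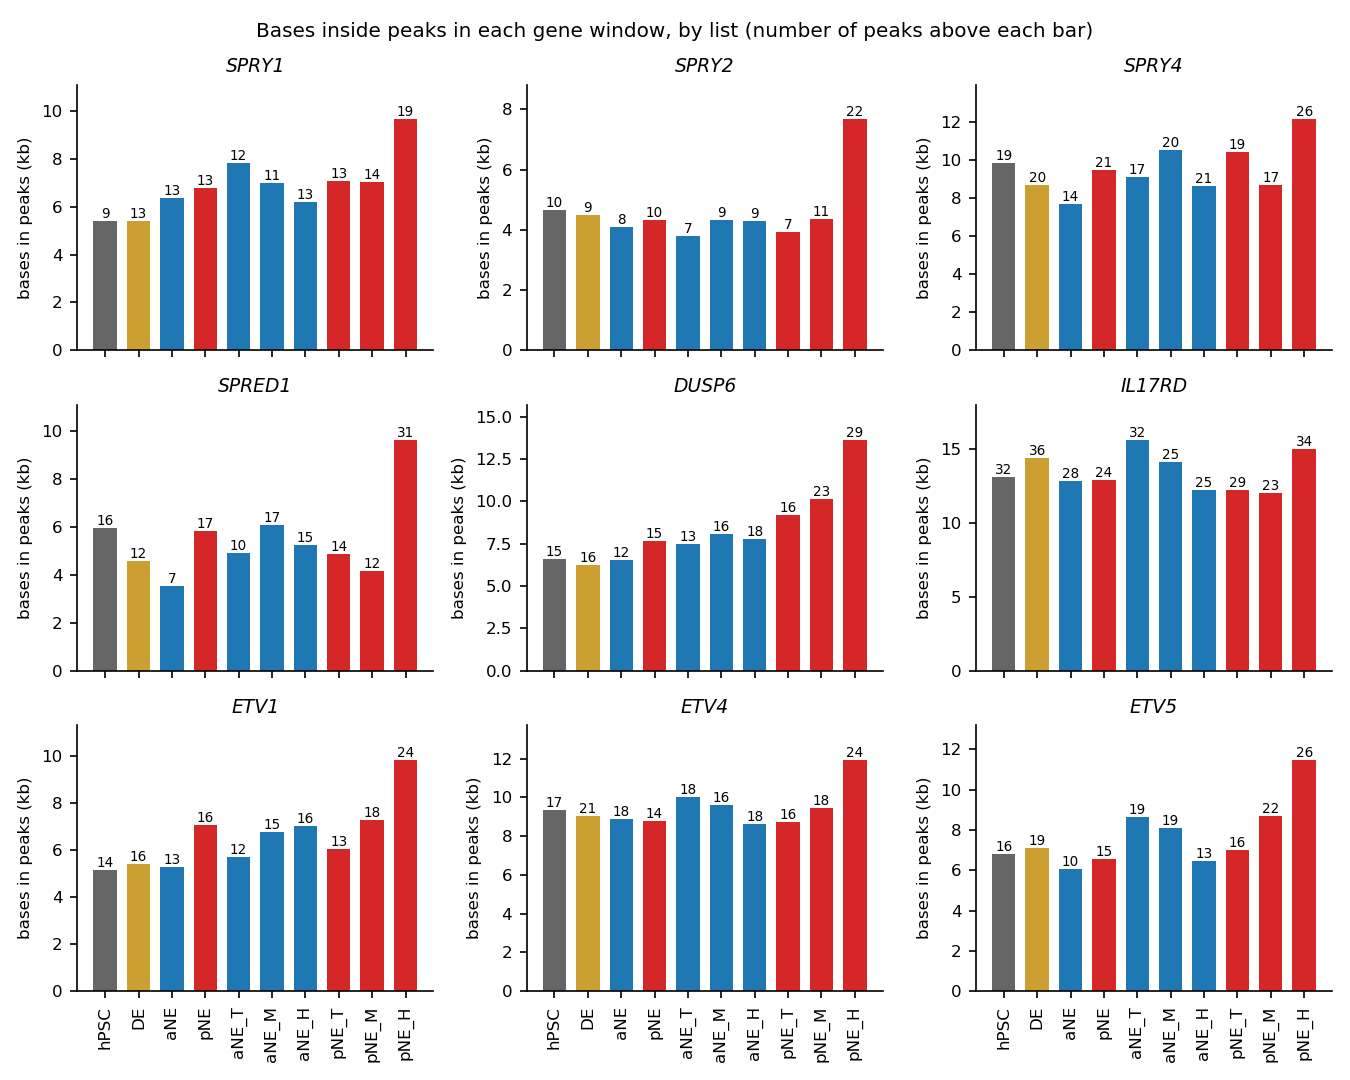
Bases inside peaks (kb, vertical axis) in the window of each FGF feedback gene in the 10 lists, with the number of peaks above each bar; grey is hPSC, yellow DE, blue aNE and its derivatives, red pNE and its derivatives. SPRED1 was lowest in aNE (3521 bp) and the 3 pNE-derived bars of DUSP6 lie above the 3 aNE-derived ones, up to 13658 bp in pNE_H, the longest list.

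The Sprouty genes encode inhibitors upstream of MEK, and none of their windows was past 1.5-fold for DE over hPSC or pNE over aNE. SPRY1 had 5377 bases inside peaks in hPSC, 5403 in DE, 6370 in aNE and 6789 in pNE. At day 4 it had 7808 in aNE_T, 6984 in aNE_M, 6201 in aNE_H, 7072 in pNE_T, 7032 in pNE_M and 9645 in pNE_H. The SPRY1 window was thus lowest in the hPSC list and highest in pNE_H. SPRY2 held 4661 bases in hPSC, 4490 in DE, 4080 in aNE and 4324 in pNE, then 3795, 4316 and 4305 in aNE_T, aNE_M and aNE_H and 3920, 4364 and 7672 in pNE_T, pNE_M and pNE_H. Outside pNE_H, SPRY2 stayed in a narrow band, and its window had no region open in aNE and closed in pNE. SPRY4 held 9814 bases in hPSC, 8655 in DE, 7671 in aNE and 9481 in pNE, with 19, 20, 14 and 21 peaks. At day 4 SPRY4 lay between 8632 in aNE_H and 12134 in pNE_H. Its lowest value of all lists was the aNE one, and the hPSC and pNE values lay close together above it. Within the gene body alone the picture for days 0 to 2 changed: SPRY2 was 0.488-fold in pNE over aNE (634 against 1299 bases) where its window gave 1.06, and 1.95-fold in DE over hPSC (1292 against 663), where its window gave 0.963. SPRY4 was 1.58-fold in DE over hPSC in its body and 0.882-fold in its window.

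SPRED1, which brings the RAS inactivator neurofibromin to the membrane, had the largest difference between the day 2 lists. Its window held 16 peaks in hPSC, 12 in DE, 7 in aNE and 17 in pNE. Bases inside peaks were 5957, 4575, 3521 and 5832 in the same order. The later lists held 4940 in aNE_T, 6085 in aNE_M, 5255 in aNE_H, 4873 in pNE_T, 4154 in pNE_M and 9659 in pNE_H. SPRED1 was thus low in DE, lowest in aNE, and in pNE close to its hPSC value. It was 1.66-fold higher in pNE than in aNE, and the only FGF feedback gene of 9 past 1.5-fold in that direction, where 4.42% of 19035 gene windows were past it. Scaled to the bases covered by each list the ratio was 1.45, and with the widest 167792 peaks of each list it was 1.46. Within the gene body alone it was 3.32, from 2183 against 658 bases. On day 4 the ratio of pNE-derived to aNE-derived lists was 0.986 in T (0.961 scaled to the list), 0.683 in M (0.74 scaled) and 1.84 in H (1.2 scaled), so the order of day 2 was seen in the H pair and not in the other 2.

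DUSP6 is the phosphatase that acts on ERK itself. Its window held 15, 16, 12 and 15 peaks in hPSC, DE, aNE and pNE, with 6581, 6230, 6541 and 7673 bases. On day 4 it held 7486 in aNE_T, 8088 in aNE_M, 7768 in aNE_H, 9225 in pNE_T, 10165 in pNE_M and 13658 in pNE_H. The 3 pNE-derived lists all lay above the 3 aNE-derived ones. Ratios of pNE-derived to aNE-derived lists, scaled to list length, were 1.2 in T, 1.36 in M and 1.14 in H, and the day 2 ratio of pNE to aNE was 1.17, or 1.03 scaled. POC1B and the readthrough gene POC1B-DUSP6 share this window, and 26 of its 36 regions have DUSP6 as the nearest gene.

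IL17RD, the membrane antagonist, held the most peaks of the FGF feedback genes in each list of days 0 to 2. It had 32 in hPSC, 36 in DE, 28 in aNE and 24 in pNE, and 13088, 14352, 12784 and 12873 bases. The later lists lay between 12001 in pNE_M and 15609 in aNE_T. The IL17RD window is long, at 180 kb. By share of the window covered, IL17RD was highest in DE (7.96%) but not in the other lists of days 0 to 2. SPRY4 was higher in hPSC (8.56% against 7.26%) and pNE (8.27% against 7.14%), and ETV4 in aNE (7.51% against 7.09%). ARHGEF3, SPATA12 and the forebrain gene HESX1 lie in its window, and 31 of 52 regions were nearest to IL17RD. The ratio of pNE-derived to aNE-derived lists was 0.782 in T, 0.852 in M and 1.22 in H, or 0.762, 0.923 and 0.796 scaled to the list, where the scaled ratios of DUSP6 were all above 1.

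Among the ETS factors, ETV1 held 5132 bases in hPSC, 5412 in DE, 5297 in aNE and 7059 in pNE, so the pNE value stood above the other 3. The pNE to aNE ratio was 1.33, or 1.17 scaled to the list. Later ETV1 values lay between 5691 in aNE_T and 9829 in pNE_H. ETV4 was flat: 9328, 9022, 8896 and 8772 bases in hPSC, DE, aNE and pNE, and 8642 in aNE_H to 11931 in pNE_H on day 4. ETV5 held 6797, 7106, 6061 and 6536, and on day 4 6451 in aNE_H to 11468 in pNE_H.

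Read over all 9 genes, the day 2 difference was close to that of the genome. Together the windows held 148 peaks in hPSC, 162 in DE, 123 in aNE and 145 in pNE, and 66735, 65245, 61221 and 69339 bases. Of the aNE and pNE peaks together, 54.1% were in pNE (Wilson 95% interval 48.1 to 60.0, counting error only), and after division by list length the pNE share was 48.9%. The members' median ratio of pNE to aNE was 1.08, against 1.05 over all genes. None of the 9 was past 1.5-fold lower, where 0.552% of genes were. For DE over hPSC, 52.3% of the peaks were in DE (46.7 to 57.8), or 48.6% after division by list length. The median ratio was 0.967 against 1.04 over all genes, with 3 of 9 genes above the all-gene median. In that comparison 0 of 9 were past 1.5-fold higher and 0 of 9 lower, against 3.16% and 0.572% of genes.

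**Figure D2:**
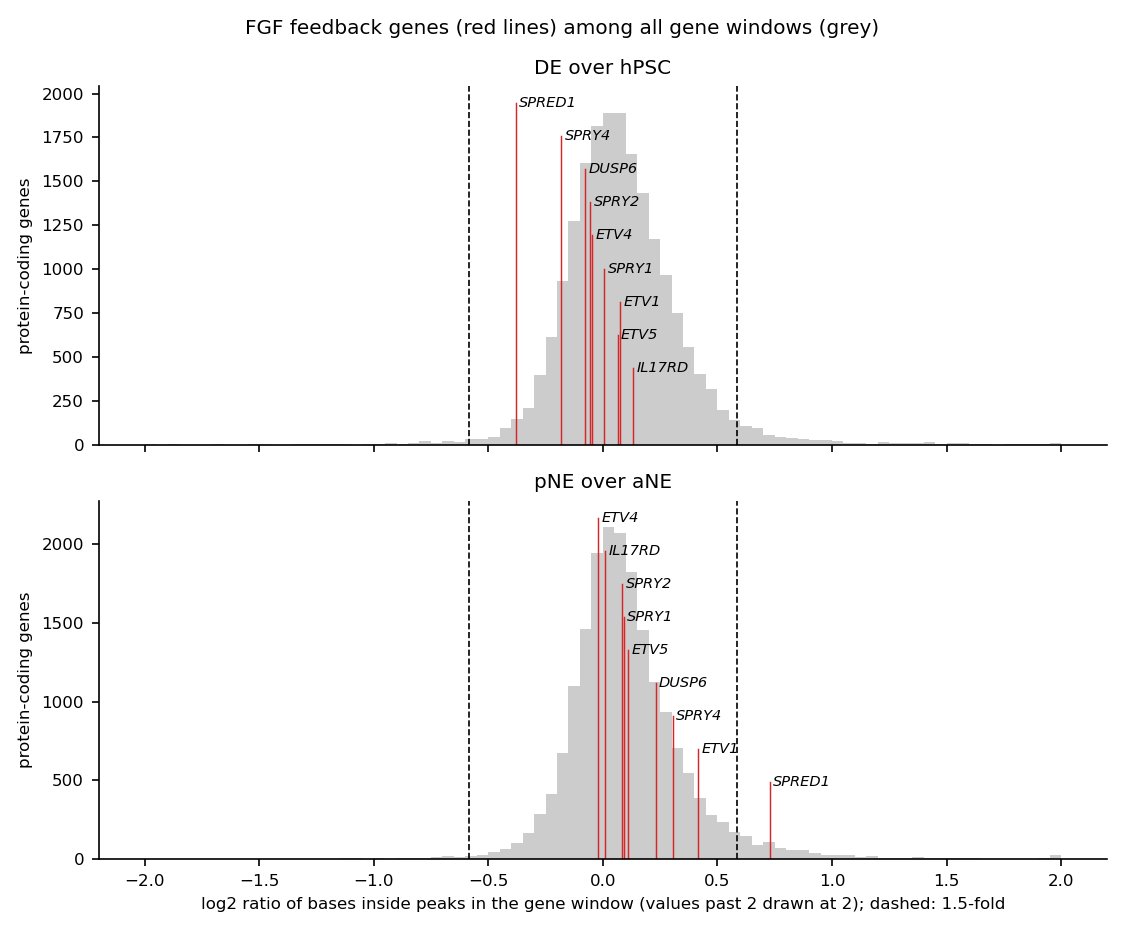
Distribution of the log2 ratio of bases inside peaks over all gene windows (grey bars, number of genes) for DE over hPSC and for pNE over aNE, with the FGF feedback genes as red lines of staggered height for reading and dashed lines at 1.5-fold. In the lower panel SPRED1 alone lies past the line, and in the upper panel no member does.

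Both day 2 lists can be set beside the DE list they came from, with the reminder that these comparisons share DE. Over all genes the values were lower than in DE in both, with median ratios of 0.846 in aNE and 0.892 in pNE. The FGF feedback genes had medians of 0.909 and 1.1. In aNE, 8 of the 9 lay above the all-gene median and in pNE 9 of 9, with ETV1 (1.3), SPRED1 (1.27), SPRY1 (1.26) and DUSP6 (1.23) the highest in pNE. IL17RD (0.897) was the lowest in pNE, next to the all-gene median. Scaled to the list, the pNE over DE ratio was 0.977 for IL17RD and 1.0 for ETV5, and the other members lay between 1.05 (SPRY2) and 1.42 (ETV1). In aNE over DE, other gene sets had medians of 0.845 (FGF receptors), 0.894 (FGF ligands), 0.883 (ERK cascade) and 0.929 (other ERK-responsive genes). For pluripotency, neural ectoderm, mesendoderm, and neural crest and surface ectoderm markers they were 0.783, 1.01, 0.833 and 0.966. In pNE over DE they were 0.92, 0.963, 0.861, 0.901, 0.918, 1.04, 0.961 and 0.978 in the same order. Medians above that of all genes were thus not confined to the members. No member reached 1.5-fold: 0 of 9 higher and 0 of 9 lower in aNE, against 0.115% and 10.7% of genes, and 0 of 9 higher and 0 of 9 lower in pNE, against 1.48% and 6.82%.

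In pNE_H against aNE_H, 5 of 9 members (SPRY1, SPRY2, SPRED1, DUSP6 and ETV5) were past 1.5-fold higher, as were 28.6% of all genes, and 0 of 9 were lower, against 0.13%. Bases covered over the whole list differed 1.54-fold between these lists, and after scaling the 5 ratios lay between 1.01 for SPRY1 and 1.2 for SPRED1. Marker windows were higher in pNE_H too: 52288 against 31011 bases for the 4 neural crest and surface ectoderm genes, of which 3 (SOX10, GATA3 and TP63) were past 1.5-fold higher, 46688 against 33822 for mesendoderm, 60987 against 47736 for neural ectoderm and 37117 against 27059 for pluripotency genes. These sums are not scaled to the list, and the whole lists differ 1.54-fold. Median ratios of pNE_H to aNE_H were 1.73 for neural crest and surface ectoderm genes and 1.24 for mesendoderm. They were 1.22 for neural ectoderm and 1.34 for pluripotency genes, against 1.32 over all genes. In the other 5 day 4 lists the unscaled neural crest and surface ectoderm sum lay between 31011 and 34645. The part of these markers in the result was not tested. For pNE_T against aNE_T, 0 of 9 were past 1.5-fold higher and 0 of 9 lower, where 4.35% and 2.35% of genes were. The count was also 0 of 9 in both directions for pNE_M against aNE_M, where 1.69% of genes were higher and 5.5% lower.

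The individual regions show which elements differed. Of the 315 regions, 66 (21.0%, Wilson interval 16.8 to 25.8) were open in all 10 lists, against 16.5% of all regions and 18.5% of those in gene windows. Another 97 (30.8%, 26.0 to 36.1) were open in a single list, against 33.5% of all regions. In pNE_H alone, the longest list, 46 were open (14.6%, 11.1 to 18.9), against 10.6%. Of the 138 member regions open in hPSC, 32 (23.2%, 16.9 to 30.9) were not open in DE, against 21.8% in the genome. Of the 144 open in DE, 38 (26.4%, 19.9 to 34.1) were not open in hPSC, against 32.3%. Among 155 regions open in aNE or pNE, 42 (27.1%, 20.7 to 34.6) were open in pNE alone, against 28.5%, and 17 (11.0%, 6.96 to 16.9) in aNE alone, against 12.4%. The genome value was outside the interval for 2 of these shares, those open in all lists and in pNE_H alone. The interval of the first holds the value of gene windows, and that of pNE_H alone does not (9.29% in gene windows).

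The 42 regions open in pNE and not in aNE were unevenly spread, with 11 at SPRED1, 7 at SPRY4, 5 each at ETV1 and ETV5, 4 at DUSP6, 3 each at SPRY1, SPRY2 and IL17RD and 1 at ETV4. The windows differ in size, from 105 kb (SPRY2 and DUSP6) to 204 kb (SPRED1). They held from 24 regions at SPRY2 to 52 at IL17RD, with 38 at SPRED1 and 40 at SPRY4. On day 4, 28 of the 42 were open in aNE_M and 25 in aNE_H, against 14 in aNE_T, 15 in pNE_T and 16 in pNE_M, and 30 in pNE_H. As shares these were 66.7% in aNE_M, 59.5% in aNE_H and 71.4% in pNE_H, against 63.9%, 60.8% and 72.9% of the 62762 such regions of the genome. In aNE_T, pNE_T and pNE_M they were 33.3%, 35.7% and 38.1%, against 38.1%, 41.5% and 48%. The order of the lists was thus much like that of the genome. At ETV5 the widest was chr3:186124064-186125050, 15.5 kb above the upper end of ETV5. Its bases inside peaks were 0 in hPSC, DE and aNE, 618 in pNE, 0 in aNE_T, 637 in aNE_M, 752 in aNE_H, 0 in pNE_T, 655 in pNE_M and 938 in pNE_H. It was closed in both T lists and open in all 4 M and H lists. The region chr5:142296903-142297328, 27.1 kb downstream of the SPRY4 start, had the same 5 lists open, with 277 bp in pNE and 329, 227, 145 and 204 bp in aNE_M, aNE_H, pNE_M and pNE_H.

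At the other genes the widest region open in pNE and not in aNE was open in other lists too (that of ETV1 is described with the 4-list patterns). DUSP6 had chr12:89372573-89373446, 20.5 kb upstream, with 850 bp in hPSC, 750 in DE, 237 in pNE and none in the other 7 lists, so it was widest before neural induction. IL17RD had chr3:57143126-57143640 in its body, with 348 bp in DE and 312 in pNE, and 498, 388, 451 and 144 bp in aNE_T, aNE_M, aNE_H and pNE_T. ETV4 had chr17:43592153-43592885, with 268 bp in DE and 153 in pNE; its day 4 peaks were in aNE_M (491 bp), aNE_H (175 bp), pNE_T (270 bp) and pNE_H (289 bp). SPRED1 had chr15:38319428-38319995 in its body, with 168 bp in pNE and 481 in pNE_H only. SPRY1 had chr4:123453114-123453854, with 165 bp in pNE, 614 in aNE_T, 239 in aNE_M, 277 in pNE_T and 735 in pNE_H. SPRY2 had chr13:80328416-80328718, with 168 bp in pNE, 122 in aNE_M, 168 in pNE_M and 303 in pNE_H.

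Of the 17 regions open in aNE and not in pNE, 6 were open in hPSC, 12 in DE, 9 in aNE_T, 2 in aNE_M, 1 in aNE_H, 4 in pNE_T, 4 in pNE_M and 5 in pNE_H. The shares were 70.6% in DE and 52.9% in aNE_T, against 70.8% and 49.2% of the 27338 such regions of the genome, and 11.8% in aNE_M and 5.88% in aNE_H, against 32.1% and 20.1%. The last 2 shares rest on 2 and 1 regions. IL17RD held 5 of the 17. Its widest, chr3:57094503-57095024 in the gene body, had 522 bp in DE, 125 in aNE and 153 in aNE_T and no peak in the other 7 lists. ETV4 had chr17:43536350-43536893 in its body, which overlaps DHX8, with 122 bp in hPSC, 531 in DE, 203 in aNE and 241 in aNE_T. ETV1 had chr7:13898896-13899449 in its body, with 398 bp in DE, 160 in aNE, 256 in aNE_T, 204 in aNE_M, 280 in pNE_T, 462 in pNE_M and 545 in pNE_H. SPRY1 had chr4:123412828-123413993, 16.6 kb downstream of its start, with 349 bp in aNE, 459 in pNE_T, 804 in pNE_M and 1166 in pNE_H. DUSP6 had chr12:89349959-89350178 in its body, with 216, 165, 129 and 139 bp in hPSC, DE, aNE and aNE_T. SPRED1, SPRY4 and ETV5 had chr15:38373011-38373216, chr5:142264679-142264831 and chr3:186054010-186054279, with 148, 135 and 180 bp in aNE. The first was also open in hPSC (195 bp) and aNE_T (154 bp), the second in DE (146 bp), and the third in hPSC, DE and the 3 pNE-derived lists (116 to 193 bp).

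Media of the first 4 lists differ in FGF2 and in MEK inhibition, among other agents. DE differs from hPSC also in A8301, LDN193189, C59 and day, and pNE from aNE also in TTNPB, XAV939 and C59. These cannot be told apart from FGF2 or trametinib here, and FGF signalling was not measured. FGF2 was present for hPSC, kept in mTeSR Plus, a maintenance medium that contains it, and for pNE, while MEK was inhibited for DE and no FGF2 was added for aNE. Of the member regions, 8 (2.54%, 1.29 to 4.93) were open in hPSC and pNE and closed in DE and aNE, against 1.3% of all regions. The opposite pattern, open in DE and aNE and closed in hPSC and pNE, was found for 7 (2.22%, 1.08 to 4.52), against 1.77%. Both intervals hold the genome value, and the first share was 1.25% (3 of 240) with the widest 167792 peaks of each list, where all regions gave 1.34%.

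**Figure D3:**
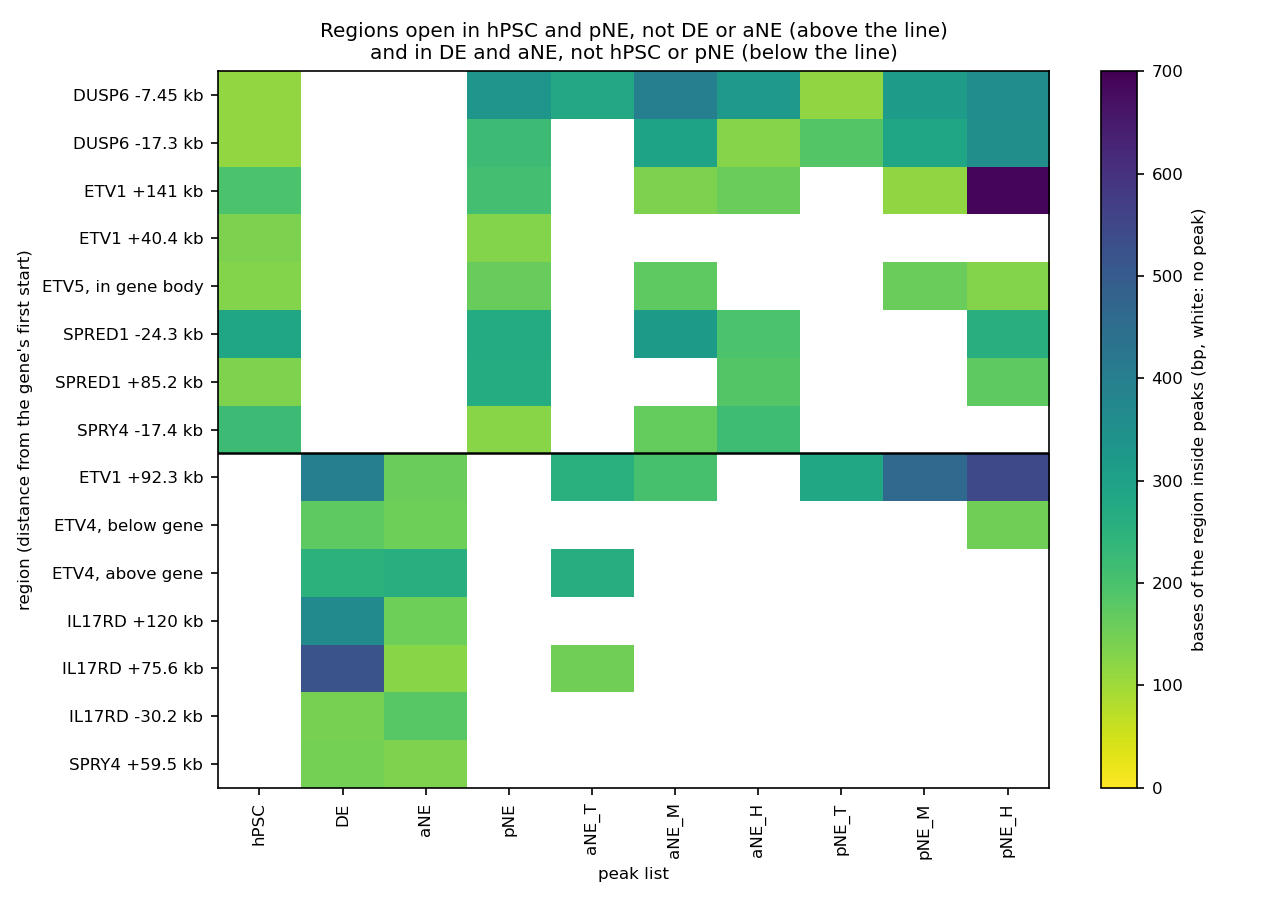
Bases inside peaks (bp, colour) in the 10 lists for the 15 regions with either pattern, above the line those open in hPSC and pNE and below it those open in DE and aNE. Labels give the distance from the first start (kb, negative is upstream), and white cells have no peak. Of the 8 upper regions, 6 are open in aNE_M, 6 in aNE_H and 6 in pNE_H, and the upper DUSP6 region is open in all 6 day 4 lists.

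Of the 8 regions with the first pattern, DUSP6, SPRED1 and ETV1 held 2 each, and SPRY4 and ETV5 held 1 each. The DUSP6 region chr12:89359752-89360152, 7.45 kb upstream of the start and inside POC1B-DUSP6, had 113 bp in hPSC, none in DE and aNE, 331 in pNE, 278 in aNE_T, 397 in aNE_M, 322 in aNE_H, 115 in pNE_T, 312 in pNE_M and 358 in pNE_H. A second DUSP6 region, chr12:89369565-89369962 at 17.3 kb upstream, had 113 bp in hPSC, 221 in pNE, and 293, 126, 188, 286 and 353 bp in aNE_M, aNE_H, pNE_T, pNE_M and pNE_H. Both were thus open in pNE and in most day 4 lists and closed in DE and aNE. The hPSC peaks at both are 113 bp wide, the narrowest width that list holds. Neither kept the pattern with the widest 167792 peaks of each list.

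SPRED1 had chr15:38228326-38228814, 24.3 kb upstream, with 289 bp in hPSC, 270 in pNE, 318 in aNE_M, 199 in aNE_H and 258 in pNE_H. It also had chr15:38337910-38338177 in its body, with 136 bp in hPSC, 266 in pNE, 188 in aNE_H and 173 in pNE_H. ETV1 had chr7:13850135-13850825, 141 kb downstream of its first start, with 197 bp in hPSC, 208 in pNE, 137 in aNE_M, 161 in aNE_H, 116 in pNE_M and 691 in pNE_H. ETV1 also had chr7:13950924-13951112 in its body, open in no list of day 4. SPRY4 had chr5:142341488-142341762, 17.4 kb upstream, with 219 bp in hPSC, 124 in pNE, 166 in aNE_M and 218 in aNE_H. ETV5 had chr3:186081726-186081932 in its body, with 131 bp in hPSC, 163 in pNE, 173 in aNE_M, 159 in pNE_M and 129 in pNE_H. Of the 8, the SPRED1 region upstream and the ETV1 region downstream kept the pattern with the widest 167792 peaks of each list. Of the 7 regions with the opposite pattern, IL17RD held 3, ETV4 held 2, and SPRY4 and ETV1 held 1 each, and IL17RD and ETV4 had none of the first pattern.

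**Figure D4:**
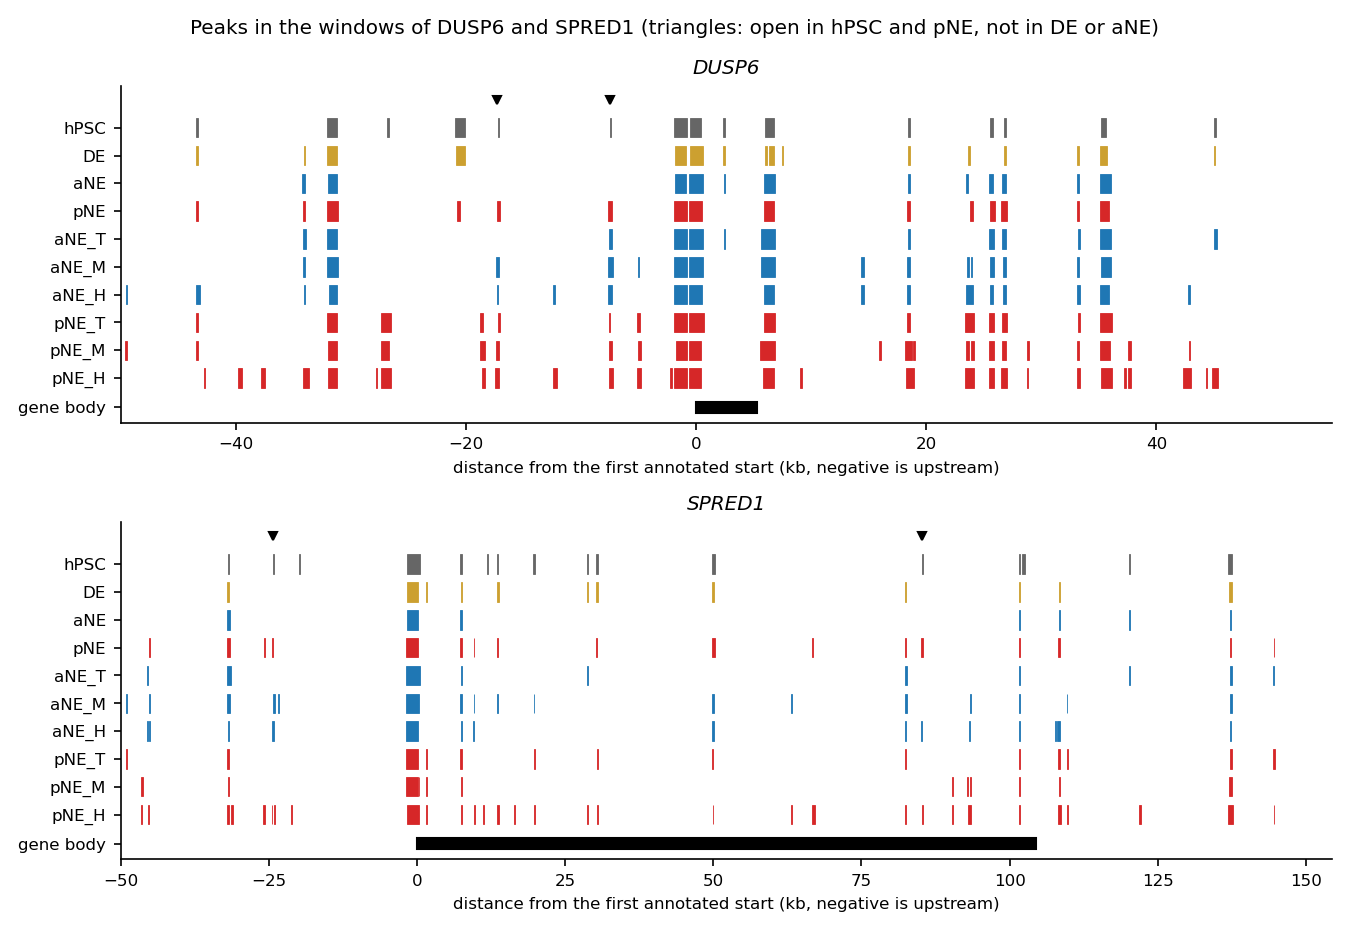
Peaks of the 10 lists (rows) in the windows of DUSP6 and SPRED1 by distance from the first annotated start (kb, negative is upstream), with the gene body in black and triangles at the regions open in hPSC and pNE and closed in DE and aNE. The start peak is present in every row, and in the SPRED1 panel the aNE row has 7 peaks against 17 in the pNE row.

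Followed along the path, 32 member regions were open in hPSC and closed in DE. Of these, 12 (37.5%, 22.9 to 54.7) were open again in pNE, against 21% of such regions in the genome, and 5 (15.6%, 6.86 to 31.8) in aNE, against 10.2%. This reading was chosen after the values were seen. With the widest 167792 peaks of each list both shares were 32.1% (9 of 28), against 28.2% and 27.4% of all such regions, so the difference between pNE and aNE was not present there. Peaks of the aNE list are wider than those of the other lists of days 0 to 2 (median 308 bp against 264 to 287), and the part of list length in the 2 shares was not tested beyond this.

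Day 4 lists were also grouped by origin, a reading again chosen after the values were seen. Of the member regions, 10 (3.17%, 1.73 to 5.74) were open in pNE_T, pNE_M and pNE_H and in none of the 3 aNE-derived lists, against 2.33% of all regions. The reverse held for 1 region (0.317%, 0.0561 to 1.78), at ETV5, against 0.633%. DUSP6 held 2 of the 10. At chr12:89379031-89379907, 27.0 kb upstream of its start and nearer to POC1B, peaks covered 856 bp in pNE_T, 703 in pNE_M and 873 in pNE_H, 113 in hPSC, and none in DE, aNE, pNE and the aNE-derived lists. At chr12:89370852-89371312, 18.6 kb upstream, they covered 313, 461 and 206 bp in the 3 pNE-derived lists and none in the other 7. These regions were not open in pNE on day 2. ETV5 held 3 such regions, the widest being chr3:186070292-186070987 in the gene body, where pNE_T had 336 bp, pNE_M 674 and pNE_H 355. The rest were 1 each at ETV4, IL17RD, SPRED1, SPRY1 and SPRY4. Some of the 10 were open before day 4. The SPRY4 region had 654 bp in hPSC, 345 in DE, 222 in aNE and 278 in pNE. The SPRY1 region had 349 bp in aNE, and the SPRED1 region 134 bp in DE. The ETV5 region chr3:186054010-186054279 had 193 bp in hPSC, 185 in DE and 180 in aNE. At ETV4, chr17:43552297-43552800 had 211, 432 and 491 bp, and at IL17RD, chr3:57145026-57145459 had 303, 399 and 434 bp, with none in the other 7 lists at either.

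No gene of the rest of the pathway was past the limit in the main day 1 and day 2 comparisons. Of 6 FGF receptor genes (FGFR1 to FGFR4, FGFRL1 and the co-receptor KLB), 8 FGF ligands, 13 genes of the ERK cascade and 12 other ERK-responsive genes, 0 were past 1.5-fold in either direction for pNE over aNE or for DE over hPSC. Their median ratios of pNE to aNE were 1.09, 1.08, 0.981 and 1.02, beside 1.08 for the FGF feedback genes and 1.05 for all genes. Among the other comparisons, 1 of the 8 ligands was past 1.5-fold lower in aNE than in DE, as were 10.7% of all genes. This was FGF17, a ligand of the midbrain-hindbrain boundary (8772 against 13568 bases). These values are not scaled to the list, and the aNE list covers 0.804 times the bases of the DE list. In pNE_H against aNE_H, where 28.6% of all genes were past 1.5-fold higher, so were 1 of the 6 receptor genes (KLB), 1 of the 8 ligands (FGF9) and 2 of the 12 other ERK-responsive genes (DUSP4 and PHLDA1). The genes past it in the ERK cascade included the adaptor FRS2 and the MEK genes MAP2K1 and MAP2K2.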

How the data were processed

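Each of the 10 deposited files lists peak positions (sequence name, start, end) for 1 group of 3 replicates. Per the submitters' processing notes, the build is hg38 and the tools named are FastQC, Bowtie2, MACS2, bedtools, featureCounts, edgeR and deepTools, with no versions or roles. The peak threshold and how the replicates were combined are not given in the sources used here, and either would move every peak number.

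From these positions, peaks of the main chromosomes were counted in windows of the gene body with 50 kb each side, and overlapping peaks were merged across lists. A gene was counted past a limit of 1.5-fold in covered bases where either list had at least 3 peaks in its window. Gene positions came from a RefSeq table of GRCh38.p14. ETV4 and ETV5 have no strand there, so both gene ends were used. Members and gene lists were chosen with earlier results of these data known. All 9 members are named. Regions are named by rule: at the start, the widest in each day 2 direction more than 1 kb from a start, and those with a 4-list pattern; regions by day 4 origin were added after their values were seen. Pathway genes are named where past 1.5-fold, except for an item that is not reported here. Wilson 95% intervals treat regions as independent and cover no library error. The counting was checked on simulated lists. Python 3.11.15 was used with numpy 2.4.6, pandas 2.3.3, scipy 1.17.1 and matplotlib 3.10.9.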

Additional observations from a re-analysis of the deposited data

Results flagged for a closer look

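Going from the T to the H lists of day 4, the summed bases inside peaks of the FGF feedback genes moved in opposite directions by origin. The aNE_H value was 0.91 times that of aNE_T (66521 against 73082 bases, with 4 of 9 genes higher). For pNE_H over pNE_T the ratio was 1.45 (100965 against 69499 bases, with 9 of 9 genes higher). The whole lists covered 84.0 Mb in aNE_H and 87.2 Mb in aNE_T, against 129 Mb in pNE_H and 89.4 Mb in pNE_T. Scaled to the bases covered by each list, the ratios were 0.944 and 1.01, so the rise in the posterior arm was nearly absent after scaling. The share of all genes that were higher was not counted, so the 4 of 9 and 9 of 9 have no genome value beside them. With 1 list per group the difference was not tested.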

How the results depend on the processing

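With no score in the lists, settings could be changed only in window, list length, peak width and the rule for an open region. Of 9 FGF feedback genes, the 1 past 1.5-fold higher in pNE than in aNE (SPRED1) became 0 with the widest 167792 peaks of each list (lists of equal length), with the widest 50% of each list, and with covered bases divided by those of the list. In the gene body with no flank, 1 gene (SPRY2) was past 1.5-fold lower in pNE than in aNE and 2 (SPRY2 and SPRY4) past 1.5-fold higher in DE than in hPSC, where the 50 kb windows gave 0 for both. The 8 regions open in hPSC and pNE and closed in DE and aNE became 3 with lists of equal length, 4 with the widest 50% of peaks, 3 in the gene bodies and 14 with 100 kb each side. The 7 with the opposite pattern became 3 with the widest 50% and 2 in the gene bodies. Of alternatives added after the data were seen, lists of equal length raised the share open again in aNE from 15.6% to 32.1%. The 10 regions open in the 3 pNE-derived and no aNE-derived list of day 4 became 5 with the widest 50%, and the 1 of the reverse kind became 4 when peaks had to cover 50% of a region, 4 with lists of equal length and 2 with the widest 50%. The cause of these shifts was not tested, except that shorter lists and narrower windows hold fewer regions. Shares of pNE and DE peaks stayed within the main intervals but crossed 50%, to 49.6% and 48.7% with lists of equal length. No paired analysis was possible because each group has 1 list with no value per replicate. Read depth is unknown, and a peak missing from a list does not show that the site was closed.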
